A study of Mus musculus with 18 samples.

Results

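The genes examined here encode the enzymes that cut the extracellular matrix and the proteins that hold those enzymes in check: the matrix metalloproteinases (Mmp), the ADAMTS proteases, the ADAMTS-like proteins and the tissue inhibitors of metalloproteinases (Timp). They were taken as the autosomal protein-coding genes of the GENCODE vM21 annotation (mouse build mm10) whose symbols begin with Mmp, Adamts, Adamtsl or Timp followed by a digit, which gave 49 of 20807 genes. Of the 51 genes that match the symbols, Timp1 on chromosome X and Mmp1a, which vM21 lists as a polymorphic pseudogene, did not meet the rule. The 49 are 22 Mmp, 19 Adamts, 5 Adamtsl and 3 Timp genes.

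Bone marrow-derived macrophages (BMDM) were grown from marrow for 7 days in L929 cell supernatant and studied without stimulation, by ChIP-seq on MNase-cut chromatin for H3K27me3, the trimethyl mark of Polycomb repression, and H3K27ac, the acetyl mark of active promoters and enhancers. WT mice were labelled C57BL6, mdx mice Dmdmdx-4Cv, which lack dystrophin, and the third group mTLR4, with the strain given as Bl6/Bl10 and read here as mdxTLR4-/-, that is, mdx mice without the receptor TLR4. H3K27me3 had 2 ChIP and 2 input libraries per genotype. H3K27ac had 2 ChIP libraries from WT, 2 from mdx, 1 from mdxTLR4-/- and 1 input library without a genotype. The labelled age of the ChIP libraries follows the genotype, with 12 to 13 weeks in WT, 14 to 15 in mdx and 16 to 17 in mdxTLR4-/- for H3K27me3, and 19 to 20, 21 to 22 and 23 weeks for H3K27ac. In the order listed, every library is labelled 1 week older than the one before it, from 6 weeks in the first input library to 23 in the last ChIP library, and whether they are true ages was not tested. As labelled, age and genotype cannot be told apart. Replicates were merged before peaks were called, as the methods state for H3K27me3 and, by reference to it, for H3K27ac, and both marks have 1 list of peaks per genotype. No replicate error can therefore be given, no difference between genotypes could be tested, and the libraries' total depth is not known from the lists.

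Matrix metalloproteinases are zinc enzymes, most of them secreted as inactive precursors and some of them held at the cell surface. They degrade collagens, elastin, proteoglycans and basement membrane, and the Timp proteins bind their active sites. ADAMTS enzymes process procollagens, cleave cartilage proteoglycans or cut single substrates such as von Willebrand factor, while the ADAMTS-like proteins share their ancillary domains and have no protease domain. In injured muscle such enzymes are made by macrophages, neutrophils, fibroblasts and the muscle cells themselves, and they take part in clearing and rebuilding the matrix. H3K27me3 in general forms broad domains over repressed genes and is often focused on promoters rich in CG pairs, whereas H3K27ac occupies shorter stretches at promoters and enhancers in use.

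Most starts in the set lay under H3K27me3 in all 3 genotypes, and few had H3K27ac nearby. A run of secreted Mmp genes on chromosome 9 had starts free of H3K27me3, the state of 72.4% of all genes. The bases before 5 starts, picked as examples, are shown with each CG pair in capitals. Mmp14 (membrane-type 1 metalloproteinase), Adamts14 (a procollagen N-proteinase) and Timp3 (an inhibitor bound to the matrix) had starts under H3K27me3 in every list. Mmp12 (macrophage elastase) and Mmp27 had starts free of it. The sequences are RefSeq promoters of GRCm38.p6, the same build as mm10, written 5′ to 3′ along the gene, at chr14:54431478-54431597 (plus strand) for Mmp14, chr10:61273439-61273558 (minus strand) for Adamts14, chr10:86300252-86300371 (plus strand) for Timp3, chr9:7344261-7344380 (plus strand) for Mmp12 and chr9:7571276-7571395 (plus strand) for Mmp27. Each is the 120 bases before the start, counted from the RefSeq or the vM21 start, whichever lies farther upstream.
Mmp14: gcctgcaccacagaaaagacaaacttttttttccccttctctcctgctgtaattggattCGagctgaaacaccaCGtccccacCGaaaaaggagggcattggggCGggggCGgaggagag
Adamts14: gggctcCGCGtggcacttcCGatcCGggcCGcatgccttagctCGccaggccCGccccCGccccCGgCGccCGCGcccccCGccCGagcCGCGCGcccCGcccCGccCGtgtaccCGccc
Timp3: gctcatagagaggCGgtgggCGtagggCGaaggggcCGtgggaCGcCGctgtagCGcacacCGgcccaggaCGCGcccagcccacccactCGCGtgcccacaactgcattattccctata
Mmp12: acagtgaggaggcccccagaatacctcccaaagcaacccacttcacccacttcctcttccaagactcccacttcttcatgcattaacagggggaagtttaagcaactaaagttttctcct
Mmp27: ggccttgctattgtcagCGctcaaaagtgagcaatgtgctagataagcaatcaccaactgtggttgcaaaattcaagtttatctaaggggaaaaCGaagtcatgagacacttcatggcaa
These stretches hold 5 CG pairs in Mmp14, 21 in Adamts14 and 12 in Timp3, against 0 in Mmp12 and 2 in Mmp27. Other members went the other way. In the 250 bases before the start, Timp4, covered in all 3 lists, held 2, while the uncovered Timp2, Adamtsl4 and Mmp28 held 21, 17 and 15. Over all genes the median was 10 at starts covered in all 3 lists and 13 at starts covered in none.

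The H3K27me3 lists held 28143 peaks in WT BMDM, 41780 in mdx and 36488 in mdxTLR4-/-, with a median length of 5400, 3400 and 3400 bp. The H3K27ac lists were thin, with 15665, 12076 and 12493 peaks of a median of 10, 10 and 8 reads, and the smallest listed peak had 5 reads in each. Of 10 macrophage marker genes, among them the transcription factor gene Spi1 and the surface receptor gene Adgre1, 10 had an H3K27ac peak within 5 kb of the start in WT, 9 in mdx and 10 in mdxTLR4-/-. The gene without a peak was Csf1r in mdx, so the absence of a peak in these lists does not show that a start is inactive. Of 7 fibroblast markers none had H3K27ac near the start in any list, while 5 of them carried H3K27me3 over the start in each genotype. The 6 neutrophil markers were likewise without H3K27ac in all 3 lists. The peak was found in WT, mdx and mdxTLR4-/- for 1, 1 and 1 of 4 endothelial markers, 1, 0 and 0 of 5 T cell markers, 2, 1 and 1 of 4 B cell markers and 1, 0 and 0 of 5 skeletal muscle markers.

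Any H3K27me3 peak in the gene window was found for 34 of 49 members in WT, 38 in mdx and 34 in mdxTLR4-/-, beside 40.1%, 42.9% and 40.5% of all autosomal protein-coding genes. The mark covered at least 50% of the gene window, which runs from 5 kb before the gene to 1 kb past its end, in 17 members in WT, 17 in mdx and 15 in mdxTLR4-/-. Among all genes the shares were 17.5%, 17.1% and 15.6%. The whole window was covered in 2 members, Mmp9 and Adamtsl2, in WT and mdx, and in Mmp9 alone in mdxTLR4-/-, beside 4.47%, 3.79% and 3.42%. A start under an H3K27me3 peak was found in 29 members in WT, 29 in mdx and 28 in mdxTLR4-/-, beside 24.5%, 24.7% and 23.6% of all genes. For 27 members the start was covered in all 3 lists, against 21% of all genes, and for 19 it was covered in none, against 72.4%. The remaining 3 were Adamts4 (covered in WT and mdx), Adamts13 (covered in WT) and Adamts16 (covered in mdx and mdxTLR4-/-). The members thus carried the mark over the start at a higher frequency than the genome at large in every genotype.

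H3K27ac showed the opposite picture. A peak within 5 kb of the start was found for 6 members in WT, 4 in mdx and 5 in mdxTLR4-/-, while 32.9%, 28.3% and 30.4% of all genes had one. Only 7 members had such a peak in any list, against 39.6% of all genes, and only Adamts13, Mmp27 and Adamts6 had one in all 3, against 21.8%. Any H3K27me3 in the window together with H3K27ac within 5 kb of the start was found for 3 members in WT (Adamts4, Adamts13 and Mmp14), 2 in mdx (Adamts13 and Mmp14) and 2 in mdxTLR4-/- (Adamts4 and Adamts13), beside 6.2%, 5.45% and 5.45% of all genes. Neither H3K27me3 in the window nor H3K27ac within 5 kb of the start was found in any list for 7 members, against 24.8% of all genes, and these were Mmp8, Mmp10, Mmp13, Mmp16, Mmp21, Adamts10 and Adamtsl1.

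**Figure D1:**
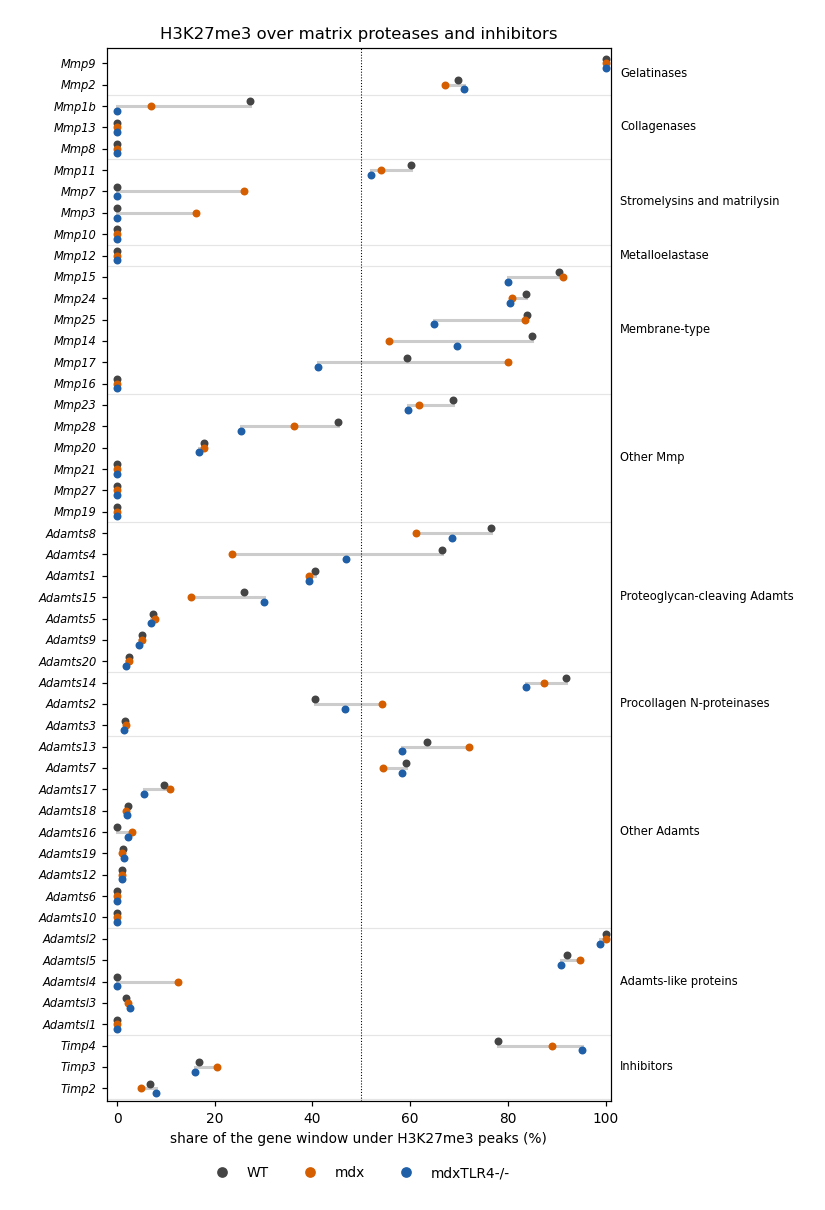
Share of each gene window under H3K27me3 peaks (%, horizontal) for the 49 genes, grouped by role, with 1 point per genotype (1 merged peak list each, no error) and a grey bar from the lowest to the highest; the dotted line marks 50%. Mmp9 lies at 100% in all 3 genotypes, the membrane-type genes other than Mmp16 lie on the right, the collagenases lie at or near 0% apart from Mmp1b in WT at 27.1%, and Adamts4 spreads from 23.4% to 66.6%.

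Both gelatinase genes lay largely under H3K27me3 in every list. Mmp9 (gelatinase B), which cuts denatured collagen and basement membrane collagen, had 100% of its window under H3K27me3 in WT, mdx and mdxTLR4-/-. The mark came from a single domain per list of 84000, 83000 and 80600 bp, with 7922, 8575 and 7568 reads, which also covered the start of Slc12a5, the neighbouring gene for a neuronal potassium-chloride cotransporter. Mmp2 (gelatinase A) had 69.7%, 67.2% and 71.0%. Neither gelatinase had an H3K27ac peak within 5 kb of its start. An acetyl peak touched the far end of Mmp2, from 25310 bp past the start in WT, 25110 bp in mdx and 24710 bp in mdxTLR4-/-, with 29, 21 and 26 reads. In each list this peak also covered the start of a neighbouring gene, so it cannot be assigned to Mmp2. The mdxTLR4-/- list held another acetyl peak in Mmp2, with 7 reads from 16110 to 16709 bp past the start, which covered no other protein-coding start. In that list an acetyl peak lay within 5 kb of another annotated transcript start of Mmp2.

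Of the 6 membrane-type genes, which encode enzymes anchored in the plasma membrane, 5 had starts under H3K27me3 in every list, and Mmp16 had no peak of this mark in any. Mmp15, Mmp24 and Mmp25 had between 64.8% and 91.2% of their windows covered. Mmp17 (MT4-MMP), which is tethered by a glycolipid, had 59.3% in WT, 80.0% in mdx and 41.1% in mdxTLR4-/-. Its start domain was present in all 3, with 20400, 19400 and 18400 bp, and the genotypes parted in the body and at the far end. There mdx had 3 peaks from 11432 bp past the start on, WT had 1 from 22232 bp and mdxTLR4-/- had 1 from 27832 bp that lay outside the gene body.

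Mmp14 is the surface collagenase that also activates pro-Mmp2. Its window was covered to 84.9% in WT, 55.7% in mdx and 69.7% in mdxTLR4-/-, with the start under the mark in each. In WT a single peak of 13600 bp ran from -3211 to 10388 bp around the start without a break. In mdx this stretch was broken between 1788 and 3589 bp past the start, and in mdxTLR4-/- between 1388 and 3989 bp. Over this stretch an H3K27ac peak of 8 reads lay from 1789 to 3388 bp in WT and one of 7 reads from 589 to 3588 bp in mdx, and none lay there in mdxTLR4-/-. Farther along the gene each list had another acetyl peak, with 8 reads from 9789 bp in WT, 7 reads from 11189 bp in mdx and 6 reads from 10989 bp in mdxTLR4-/-. All 1600 bp of the WT acetyl peak lay under H3K27me3, as did 1200 of the 3000 bp in mdx. The acetyl peaks near the start are small: the exact 95% interval of 8 reads is 3.45 to 15.8 and that of 7 reads is 2.81 to 14.4, for counting error only. A further mdx acetyl peak with 10 reads covered the start of Mrpl52, a mitochondrial ribosomal protein gene just upstream of Mmp14.

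The gap in H3K27me3 near the Mmp14 start appeared in the mdx and mdxTLR4-/- lists and not in the WT list. Farther in, all 3 lists were broken, in WT between 10388 and 11589 bp past the start. Peaks of the mdx and mdxTLR4-/- lists were also shorter genome-wide, with a median of 3400 bp in both against 5400 bp in WT. How often a WT domain was broken in both other lists was not computed. Whether the gap exceeds the difference between 2 libraries of 1 genotype cannot be told from merged lists.

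**Figure D2:**
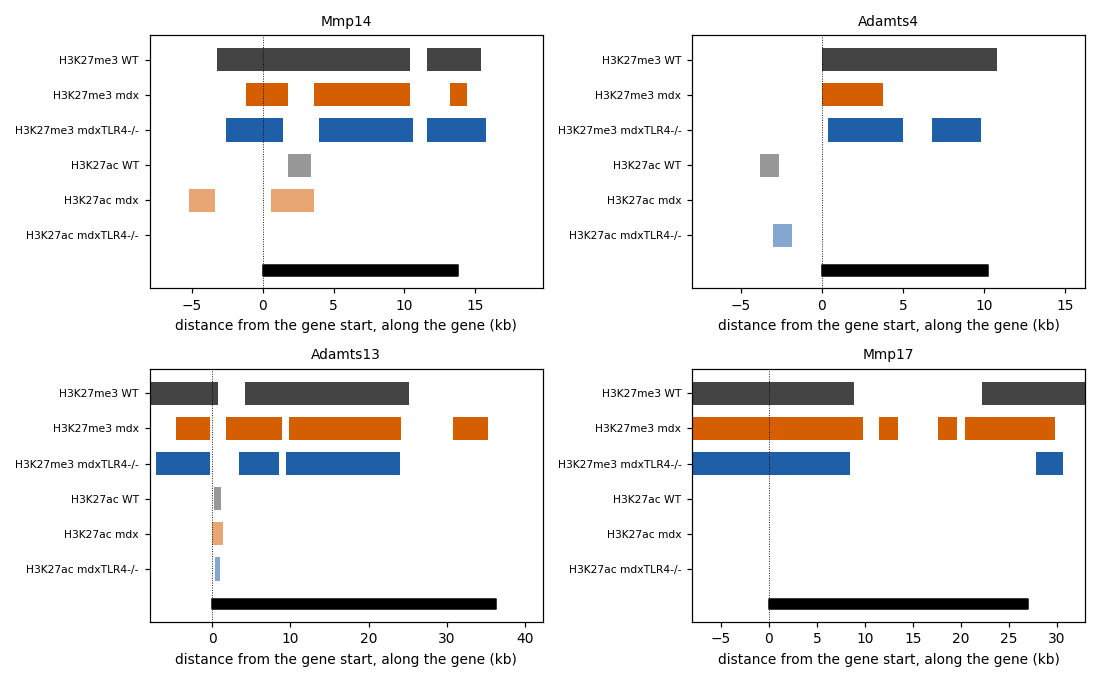
H3K27me3 peaks (upper 3 tracks) and H3K27ac peaks (lower 3 tracks) at Mmp14, Adamts4, Adamts13 and Mmp17 in WT, mdx and mdxTLR4-/-, against distance from the gene start along the gene (kb); the black bar is the gene body and the dotted line the start. At Mmp14 the H3K27me3 domain is unbroken over the start in WT and has a gap in mdx and mdxTLR4-/-, at Adamts4 the domain of 10800 bp in WT is 3800 bp in mdx, and at Mmp17 the mdx list has additional peaks in the body.

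The remaining Mmp genes held a mix. Mmp11 (stromelysin 3) had 60.2% of its window under H3K27me3 in WT BMDM, 54.0% in mdx and 51.9% in mdxTLR4-/-, in peaks that also covered the start of Chchd10, a mitochondrial protein gene. Mmp23 had 68.7%, 61.9% and 59.6%. Mmp28 (epilysin) had 45.2%, 36.3% and 25.4%, with no peak over its start, and the largest of its peaks, of 9400, 7000 and 7200 bp, lay at the far end of the gene. Mmp21, an enzyme needed in the embryo for left-right asymmetry, had no H3K27me3 and no H3K27ac near its start. Mmp19, a broadly expressed enzyme of basement membrane, had no H3K27me3 in any genotype and an H3K27ac peak over its start in mdxTLR4-/- alone, with 6 reads (exact 95% interval 2.20 to 13.1), near the smallest count that the lists contain.

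A run of 9 Mmp genes lies on chromosome 9 between the start of Mmp13 and the end of Mmp7, at chr9:7272514-7699585 in mm10, 427.072 kb that hold no other protein-coding gene of vM21. It contains the collagenases Mmp13, Mmp8 and Mmp1b, the stromelysins Mmp3 and Mmp10, the elastase Mmp12, the matrilysin Mmp7, the enamel protease Mmp20, and Mmp27. None of the 9 starts lay under H3K27me3 in any genotype, which was also the state of 72.4% of all genes. H3K27me3 peaks covered 5.71% of the run in WT, 10.1% in mdx and 2.86% in mdxTLR4-/-, beside 10.2%, 10.6% and 9.07% of the autosomes. The run held 4 H3K27me3 peaks in WT with the longest at 8 kb, 15 in mdx with the longest at 4.4 kb, and 5 in mdxTLR4-/- with the longest at 5.2 kb. The mdx list also had the most peaks genome-wide, with 41780 against 28143 in WT and 36488 in mdxTLR4-/-. In proportion, the lists stood closer together there than in the run.

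Mmp1b, Mmp7 and Mmp3 differed among genotypes through these scattered peaks. Mmp1b had 27.1% of its window covered in WT BMDM, 7.0% in mdx and none in mdxTLR4-/-, from a peak of 104 reads that ran from 1647 to 8646 bp past the start in WT and one of 42 reads from 447 to 2246 bp in mdx, so that the peaks overlapped in part. Mmp7, an epithelial matrilysin that activates defensins, had none in WT, 26.0% in mdx and none in mdxTLR4-/-, from a single mdx peak of 113 reads that lay from -5889 to -1490 bp. Mmp3, which also activates other Mmp proenzymes, had 16.1% in mdx and none in the others, from a peak of 44 reads upstream. Mmp20 had 17.8%, 17.8% and 16.7%, from 2, 3 and 4 peaks whose positions were shared only in part. Mmp8, Mmp10, Mmp12, Mmp13 and Mmp27 had no H3K27me3 in any genotype.

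Acetylation at starts of the run centred on Mmp27. An H3K27ac peak of 39 reads lay over its start in WT (-595 to 2004 bp), one of 18 reads in mdx (-995 to 2604 bp), and one of 15 reads just past the start in mdxTLR4-/- (5 to 1604 bp). In each list this peak held the most reads of the acetyl peaks near a start of the set, though in mdxTLR4-/- the Adamts6 peak held 14. The list medians were 10, 10 and 8 reads per peak. Per kb the Mmp27 peaks held 15.0, 5.0 and 9.4 reads, beside list medians of 7.0, 6.67 and 6.48, so the longer mdx peak was below its median. The mdx list had an additional peak of 10 reads between -4795 and -3196 bp. Mmp12, the elastase that gives macrophages their ability to degrade elastin, had an H3K27ac peak within 5 kb of the start in WT alone, with 7 reads in the body from 1420 to 2219 bp. Each list also had a peak upstream of Mmp12, at 62.7 to 65.1 kb past the Mmp13 start in WT, 63.9 to 65.3 kb in mdx and 64.3 to 65.1 kb in mdxTLR4-/-, with 11, 11 and 5 reads, which is beyond the 5 kb limit. Acetyl peaks covered 1.78%, 3.00% and 1.03% of the run in WT, mdx and mdxTLR4-/-, beside 1.29%, 0.977% and 0.832% of the autosomes.

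**Figure D3:**
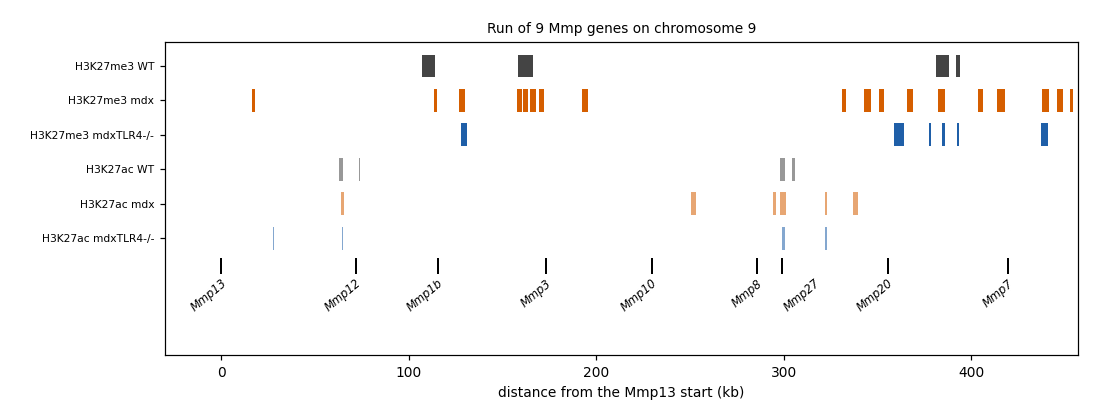
Peaks across the run of 9 Mmp genes on chromosome 9, as distance from the Mmp13 start (kb), with H3K27me3 in the upper 3 tracks and H3K27ac in the lower 3, for WT, mdx and mdxTLR4-/-; black ticks mark gene starts. None of the 9 starts is under an H3K27me3 peak, as for 72.4% of all genes. Within the run mdx has 15 short H3K27me3 peaks against 4 in WT and 5 in mdxTLR4-/-, and H3K27ac lies at Mmp27 in all 3.

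The promoters of this run held few CG pairs. RefSeq promoters were matched for 34 of 49 members and for 15703 of 20807 genes, and in 32 and 13125 of these the RefSeq start lay within 500 bp of the vM21 start. In the 250 bases before the start, the 18 members with a start under H3K27me3 in all 3 lists held a median of 16 CG pairs (range 2 to 39), beside 10 over all 2748 genes in that state. The 13 members with the start covered in none held a median of 1 (range 0 to 21), beside 13 over all 9558 such genes. The uncovered genes at large thus had more CG pairs before the start than the covered ones, and the members showed the reverse order. That order rested on the run, which supplied 9 of the 13 uncovered members, all with 4 CG pairs or fewer. The other 4, Timp2 with 21, Adamtsl4 with 17, Mmp28 with 15 and Mmp21 with 1, had a median of 16, equal to that of the covered members. Outside the run, Timp4 with 2 and Adamts13 with 1 were as poor in CG pairs.

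**Figure D4:**
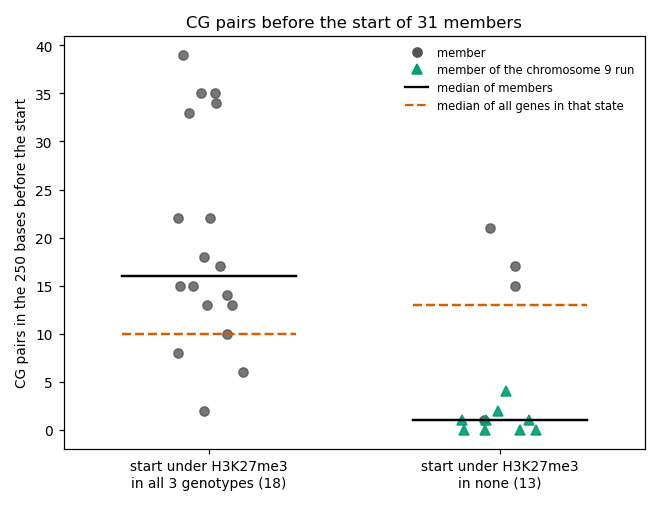
CG pairs in the 250 bases before the start (vertical) for the 18 members whose start lay under H3K27me3 in all 3 genotypes and the 13 whose start lay under it in none; triangles are genes of the chromosome 9 run, solid lines are member medians (16 and 1) and dashed lines the medians of all genes in the same state (10 and 13). Points are spread sideways for visibility.

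Letters known from metalloproteinase promoters were counted in the same 250 bases. The letters TGANTCA, taken here as AP-1 letters with any middle base, read the same on both strands. They occurred in 6 of the 9 promoters of the run, in no other member promoter, and in 5.85% of all 13125 promoters. The TATA letters TATAAA, on either strand, occurred in 6 of the 9 and in 10.4% of all promoters, and the PU.1 letters GAGGAA, on either strand, in 4 of the 9 and in 22.5% of all. The AP-1 letters of the 6 genes are shown in capitals below with up to 30 bases on each side, since these 6 genes had neither H3K27me3 over the start nor H3K27ac within 5 kb of it in any list. They lie at chr9:7272449-7272513 (plus strand) for Mmp13, chr9:7502249-7502315 (plus) for Mmp10, chr9:7445746-7445812 (plus) for Mmp3, chr9:7388083-7388149 (minus) for Mmp1b, chr9:7691997-7692063 (plus) for Mmp7 and chr9:7628106-7628172 (plus) for Mmp20.
Mmp13: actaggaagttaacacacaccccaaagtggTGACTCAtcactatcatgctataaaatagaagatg
Mmp10: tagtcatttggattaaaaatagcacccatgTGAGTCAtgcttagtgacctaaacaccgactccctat
Mmp3: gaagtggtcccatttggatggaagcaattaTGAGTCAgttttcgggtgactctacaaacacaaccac
Mmp1b: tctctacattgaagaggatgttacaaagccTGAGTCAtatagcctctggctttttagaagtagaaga
Mmp7: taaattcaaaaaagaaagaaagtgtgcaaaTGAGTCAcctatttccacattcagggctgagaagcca
Mmp20: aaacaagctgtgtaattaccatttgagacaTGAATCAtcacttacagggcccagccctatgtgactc
Counted from the RefSeq start, the letters began at -35 in Mmp13, -46 in Mmp3, -63 in Mmp10 and Mmp7, -93 in Mmp1b and -95 in Mmp20. The middle base is G in Mmp10, Mmp3, Mmp1b and Mmp7, C in Mmp13 and A in Mmp20. A search limited to G or C in the middle would leave Mmp20 out, and the share of all promoters under that limit was not computed. These matches describe letters and not occupied sites. Mmp12, Mmp8 and Mmp27 did not hold them in this window.

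Among the proteoglycan-cleaving Adamts genes, 5 of 7 had the start under H3K27me3 in all 3 lists. Adamts4 (aggrecanase 1) was the member with the widest spread of coverage, with 66.6% of its window in WT BMDM, 23.4% in mdx and 46.9% in mdxTLR4-/-. The WT list had 1 peak from -20 to 10779 bp with 237 reads, and the mdx list 1 peak from -20 to 3779 bp with 133 reads. The mdxTLR4-/- list had 2 peaks, from 380 to 4979 bp with 115 reads and from 6780 to 9779 bp with 45 reads. The mdx peak was shorter and denser, at 35.0 reads per kb against 21.9 in WT. An H3K27ac peak lay upstream in WT (-3820 to -2621 bp, 12 reads) and in mdxTLR4-/- (-3020 to -1821 bp, 6 reads), and none in mdx. The WT density lies just under 1.5 times the 1st percentile of its list, and with peaks under that limit left out the WT coverage is lost and the change from WT to mdx turns to a gain of 23.4 points.

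Adamts8 had 76.5%, 61.1% and 68.5% of its window covered in WT, mdx and mdxTLR4-/-. Adamts15, its neighbour on chromosome 9, had 25.9%, 15.2% and 30.0%. Adamts1, which is induced in inflammation and ovulation, had 40.6%, 39.2% and 39.2%, from a peak of 6200, 6000 and 6000 bp over the start. Of the other aggrecanases, Adamts5 and Adamts9 had peaks over the start but 4.53% to 7.74% of the window. Adamts20 had its H3K27me3 peak far inside the vM21 gene, from 59018 to 64017 bp in WT, 58818 to 63817 bp in mdx and 59618 to 63217 bp in mdxTLR4-/-. The RefSeq start of Adamts20 lies 61068 bp from the vM21 start, under this peak in all 3, so its entry as uncovered follows from the annotation used.

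The procollagen N-proteinases trim the amino end of fibrillar procollagens before fibrils form. Adamts14 had 92.0% of its window under H3K27me3 in WT BMDM, 87.4% in mdx and 83.6% in mdxTLR4-/-. Adamts2 had 40.5%, 54.1% and 46.6%, so that it passed 50% in mdx alone. The direction turned when all lists were cut to equal length by density: its change from WT to mdx was -15.6 points in place of 13.6, and that from mdx to mdxTLR4-/- was 4.63 in place of -7.57. Its start domain was of like size in all 3, with 23400, 23000 and 25600 bp, while the body was dotted with smaller peaks. Adamts3 had a peak of 3400, 3800 and 3200 bp on the start in a body of 206.2 kb. All 3 genes had the start under the mark in each list and none had H3K27ac near it.

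Adamts13, the protease of von Willebrand factor, had H3K27me3 in its window and H3K27ac within 5 kb of its start in all 3 lists. In no list did both marks lie on its start, or on that of any other member. Overlap of the marks near a start was also found at Mmp14, in WT and mdx. The Adamts13 window was covered to 63.5% in WT, 72.0% in mdx and 58.2% in mdxTLR4-/-. H3K27ac peaks of 10, 8 and 5 reads lay from 185 to 1184 bp past the start in WT, -15 to 1384 bp in mdx and 385 to 984 bp in mdxTLR4-/-. These peaks are small, and 5 reads is the smallest count in the mdxTLR4-/- list. H3K27me3 ran over the start to 784 bp in WT, where 600 of the 1000 bp of the acetyl peak lay under it. In mdx it stopped at -216 bp and resumed at 1785 bp, and in mdxTLR4-/- it stopped at -216 bp and resumed at 3385 bp, so the acetyl peak lay wholly in the gap in both. The WT mark was broken as well, farther in: it resumed at 4185 bp, and the rest of the WT acetyl peak lay in that gap. The genotypes thus differed at Adamts13 in where the gap lay and not in whether there was one.

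Of the remaining ADAMTS genes, Adamts7, which degrades cartilage oligomeric matrix protein, had 59.2%, 54.5% and 58.4% of its window covered. Adamts12, Adamts17, Adamts18 and Adamts19 had a peak over the start in every list, with coverage from 1.03% to 10.9%. Adamts16 had a peak over the start in mdx (121 reads) and mdxTLR4-/- (72 reads) and none in WT. Adamts10, a fibrillin-associated protease, had no H3K27me3 and no H3K27ac near its start. Adamts6 had no H3K27me3 and an H3K27ac peak before the start in each genotype, with 24 reads from -2634 to -435 bp in WT, 8 reads from -2434 to -635 bp in mdx and 14 reads from -2834 to -1435 bp in mdxTLR4-/-. The nearest other protein-coding start, that of Ppwd1, lay at least 56158 bp from the Adamts6 peaks.

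Of the 5 ADAMTS-like genes, 2 were covered almost throughout. Adamtsl2, which binds fibrillin and a TGFβ-binding protein, had 100%, 100% and 98.8% of its window under H3K27me3. Its domain of 121600 bp in WT, 156800 bp in mdx and 125800 bp in mdxTLR4-/- was the longest at any member start and also covered the starts of Dbh and Fam163b. Adamtsl5 had 92.2%, 94.8% and 90.9%, in a domain that also covered the start of Plk5. Adamtsl3 had a peak over the start of 5000, 6200 and 5400 bp in a body of 278.8 kb. Adamtsl1, the longest member at 914.2 kb, had none, and Adamtsl4 had 1 peak in the body in mdx alone, with 58 reads and 12.4% of the window.

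The 3 inhibitor genes differed from each other. Timp4, the inhibitor found mostly in heart and muscle, had 77.9% of its window covered in WT BMDM, 89.0% in mdx and 95.1% in mdxTLR4-/-. Timp3 had 16.7%, 20.4% and 16.0%, from a domain over the start of 9200, 10800 and 7400 bp. Timp2, which takes part in pro-Mmp2 activation by Mmp14, had 6.81%, 4.94% and 7.91%, no peak over the start, and in every list a small peak that began 1140 to 1540 bp past it, with 50, 54 and 40 reads. A WT peak of 10600 bp and 292 reads touched the far end of Timp2, with 9468 bp of it outside the gene body. In the other lists no peak touched that end of the window, and peaks beyond the window were not examined. No inhibitor had H3K27ac within 5 kb of its start.

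Coverage and the state of the start gave different accounts of long and short members. In the 13 members of at least 100 kb the start lay under H3K27me3 in 8, 9 and 9 cases in WT, mdx and mdxTLR4-/-, while only Adamts2 in mdx reached 50% of the window. The median length under the mark in these was 3.4, 3.8 and 3.2 kb. In the 28 members with a body under 30 kb the start was covered in 15, 15 and 14, and 13, 12 and 11 reached 50%. Over all genes of any length, starts were covered in 24.5%, 24.7% and 23.6%, and 17.5%, 17.1% and 15.6% reached 50%. Shares by length over all genes were not computed. Among the members, starts were covered no less often in the long genes than in those under 30 kb, although coverage was lower. A peak of a given length covers a smaller share of a longer window. Over the 27 starts covered in all 3 lists, the peak at the start had a median length of 10200 bp in WT, 9000 bp in mdx and 9800 bp in mdxTLR4-/-. It was shorter in mdx than in WT at 18 of 27, beside 58.5% of the 4363 genes of that kind, and shorter in mdxTLR4-/- than in WT at 16 of 27, beside 70.0%.

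From WT to mdx, H3K27me3 coverage was lower by at least 20 percentage points in 3 members, Adamts4, Mmp14 and Mmp1b, where 2.05% of all genes were, and higher by that much in 2, Mmp17 and Mmp7, where 1.85% of all genes were. From mdx to mdxTLR4-/- it was lower in 2, Mmp17 and Mmp7, beside 2.87% of all genes, and higher in 1, Adamts4, beside 0.798%. From WT to mdxTLR4-/- it was lower in 1, Mmp1b, beside 3.47%, and higher in 0, beside 0.966%. The comparisons share the lists, so that a gene that stands out in mdx enters the first and the second with opposite signs. Adamts4, Mmp17 and Mmp7 were the genes that did so. When the thinner peaks were left out in this way, Mmp14 remained lower in mdx and the changes of Mmp17, Mmp7 and Mmp1b fell below 20 points.

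**Figure D5:**
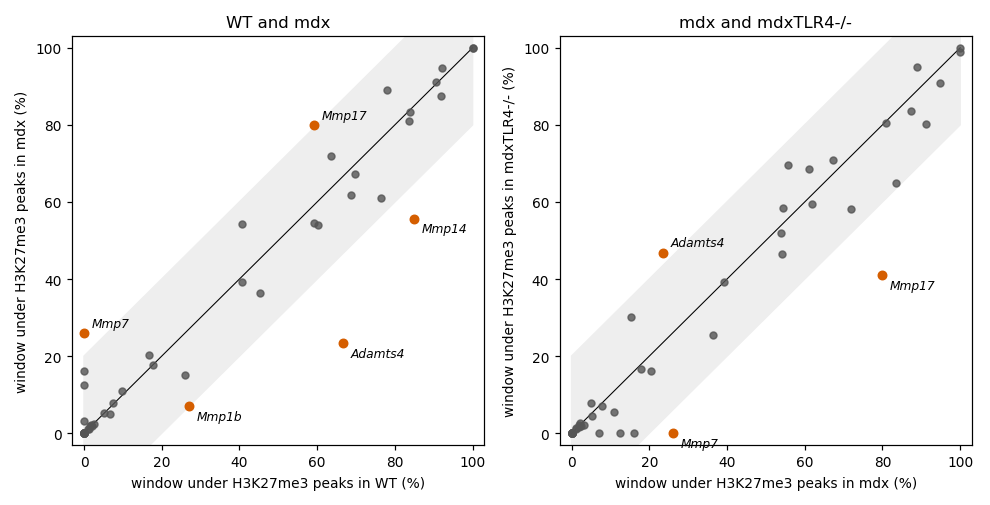
Share of each gene window under H3K27me3 peaks (%) in WT against mdx (left) and in mdx against mdxTLR4-/- (right), 1 point per gene for the 49 members; the line marks equal values, the grey band differences under 20 percentage points, and labelled points lie outside it. Left, Adamts4 (66.6% and 23.4%), Mmp14 and Mmp1b lie below the band and Mmp17 and Mmp7 above; right, Adamts4 lies above and Mmp17 and Mmp7 below.

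Counted in any amount, coverage was lower in mdx than in WT in 17 members, higher in 16 and equal in 16, beside 20.3%, 19.5% and 60.3% of all genes. The members split evenly, as the genes at large did, so there was no common direction in the set. In mdxTLR4-/- it was lower than in mdx in 24, higher in 12 and equal in 13, beside 26.9%, 13.3% and 59.9%. Against WT it was lower in 25, higher in 9 and equal in 15, beside 25.9%, 12.8% and 61.3%. Over the members with a peak in either list, the median difference was 0 points from WT to mdx (38 members), -0.89 from mdx to mdxTLR4-/- (38) and -1.14 from WT to mdxTLR4-/- (35), beside 0, -1.25 and -1.31 over all genes with a peak in either list. By the threshold of 50%, 15 members passed it in all 3 genotypes and 31 in none. The other 3 were Adamts4 (WT alone), Adamts2 (mdx alone) and Mmp17 (WT and mdx). The nearest to 50% on the upper side were Mmp11 at 51.9% in mdxTLR4-/- and Mmp11 and Adamts2 at 54.0% and 54.1% in mdx, and on the lower side Adamts4 at 46.9% and Adamts2 at 46.6% in mdxTLR4-/-.

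The reads per kb in the H3K27me3 peaks that touch a member's window had a median ratio of 1.20 in mdx to WT, over 34 members with peaks in both, equal to the 1.20 over all 7912 such genes. Of the 34 members, 33 had a ratio above 1, as did 90.6% of all genes. The exception was Timp2 at 0.66 (exact 95% interval 0.49 to 0.89, counting error only), where in WT alone a peak touched the far end of the window. In mdxTLR4-/- to WT the median ratio was 0.956 over 33 members, beside 0.975 over all genes. These counts are not scaled for depth: scaled to the reads in peaks the medians became 0.982 and 1.08, so no direction of density can be given.

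H3K27ac within 5 kb of the start was present in WT and not in mdx at 2 members, Adamts4 and Mmp12, beside 8.28% of all genes, and in mdx and not in WT at 0, beside 3.62%. It was present in mdxTLR4-/- and not in mdx at 2, Adamts4 and Mmp19, beside 7.06%, and in mdx and not in mdxTLR4-/- at 1, Mmp14, beside 4.95%. The peaks concerned had 6 to 12 reads, beside a smallest listed peak of 5 reads and a median of 10, 10 and 8. Counted anywhere in the window, 15 members had an H3K27ac peak in WT, 11 in mdx and 11 in mdxTLR4-/-, beside 41.0%, 35.6% and 37.7% of all genes. Among these was Mmp24, with 31, 30 and 13 reads in a peak that began 42659, 42859 and 42859 bp past the start, at the far end of a gene whose start lay under H3K27me3. In each list that peak covered the start of a neighbouring gene as well, so it cannot be assigned to Mmp24.

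A list of 36 other genes of matrix proteolysis, covering the cathepsins, the plasminogen system, the ADAM and meprin proteases, procollagen C-proteinases, proprotein convertases and serpins, was examined in the same way. An H3K27ac peak within 5 kb of the start was found for 11 of 36 in WT, 10 in mdx and 10 in mdxTLR4-/-, beside 32.9%, 28.3% and 30.4% of all genes, so that the list was near the genes at large. The cathepsin genes Ctsb, Ctsd, Ctsl and Ctss, which encode the main lysosomal proteases of macrophages, had the peak in all 3 genotypes, the fifth listed cathepsin gene, Ctsk, had it in WT alone, and the peak was also found in all 3 at Plau (urokinase), Adam9, Adam17, the convertase gene Furin and Thbs1. The 9 genes with the peak in all 3 had no H3K27me3 in WT. Furin had 12.3% of its window covered in mdx and Ctsb 1.36% in mdxTLR4-/-, and the others had none in any list. H3K27me3 on at least 50% of the window was found for 9 of 36 in each genotype, beside 17.5%, 17.1% and 15.6% of all genes, among them Bmp1, the procollagen C-proteinase, at 84.1%, 85.3% and 86.5%, and Serpinh1, the collagen chaperone, at 100%, 95.4% and 100%. From WT to mdx 1 of the 36, Plg, was lower by at least 20 points (92.3% and 71.0%) and 0 were higher.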

How the data were processed

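ChIP-seq peak lists for H3K27me3 and H3K27ac were analysed for BMDM of WT, mdx and mdxTLR4-/- mice, 6 lists from 18 libraries. Per the labels and the study's methods, the authors processed reads with CASAVA 1.8 and cutadapt 1.15, mapped them to mm10 with Bowtie2 2.3.4 and called peaks with SICER 2.0 (window 200 bp, gap 600 bp, FDR 0.01). Replicates were merged first, which the methods state for H3K27me3 and extend to H3K27ac in general terms. For a peak, the deposited value is its count of ChIP reads, whole and at least 5, not scaled for depth or length and without input subtraction. Longer peaks therefore hold more reads, and a domain broken by a gap over 600 bp is listed as several peaks.

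For each gene of GENCODE vM21, the share of the window from 5 kb upstream to 1 kb past the end under H3K27me3 peaks was computed, with 50% as the threshold of coverage and 20 percentage points as that of change, and H3K27ac peaks were sought within 5 kb of the start. A start is the outermost annotated base of the gene. Genotypes were set side by side without a test, beside the same measures over all 20807 genes. Density ratios and read counts carry exact 95% intervals that cover counting error only. Members named with values differed by at least 20 points between genotypes, were among the 5 most covered, had H3K27ac near the start, lay nearest 50%, or had both marks on the start; the remaining ones are given by counts, ranges or brief values within their role group. Members and lists were chosen with earlier results of these data known, and the genes beyond the rule for naming were picked after their values were seen. Not every gene that neighbours a member is reported here. Promoter letters came from RefSeq (GRCm38.p6). The measures were checked on made-up peaks with known answers. Alternatives varied the window, thresholds, peak length, density and number, and the scaling. Python 3.11.15, numpy 2.4.6, pandas 2.3.3, scipy 1.17.1 and matplotlib 3.10.9 were used.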

Additional observations from a re-analysis of the deposited data

How the results depend on the processing

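Across the alternatives chosen for the member counts and ratios, 50 values stayed near the reported ones, 32 moved and 3 reversed. Starts under H3K27me3 stayed between 27 and 31 members in each genotype under every alternative run for them. With 5 kb either side of the start as the window, 23 members reached 50% in WT, 21 in mdx and 23 in mdxTLR4-/-. By 20 points, 2 were then lower and 5 higher from WT to mdx, 5 lower and 1 higher from mdx to mdxTLR4-/-, and 4 lower and 1 higher from WT to mdxTLR4-/-. At 10 points, 5 were lower and 6 higher from WT to mdx, 8 lower and 3 higher from mdx to mdxTLR4-/-, and 7 lower and 1 higher from WT to mdxTLR4-/-. With peaks denser than 1.5 times the 1st percentile, 1 was lower and 1 higher from WT to mdx, 0 and 0 from mdx to mdxTLR4-/-, and 1 was higher from WT to mdxTLR4-/-, with Adamts4 turning to 23.4 points higher in mdx because its WT peak fell under the limit. With lists cut to equal length by density, 1 was higher from WT to mdx, 0 were higher from mdx to mdxTLR4-/- and 4 were lower from WT to mdxTLR4-/-. Over the gene body alone, 1 was lower from mdx to mdxTLR4-/-, and 2 were lower and 1 higher from WT to mdxTLR4-/-, and with peaks of at least 2 kb, 2 were higher from mdx to mdxTLR4-/- and 2 lower from WT to mdxTLR4-/-. Upstream only, H3K27ac was found for 3, 3 and 2 members in WT, mdx and mdxTLR4-/-, and within 1 kb for 3, 4 and 3. It was found for 8, 4 and 9 within 5 kb of any transcript start, and for 4, 2 and 2 with peaks of at least 10 reads. Counts not given here stayed within 1.5 times of the reported ones. The median density ratio of mdx to WT was 0.982 after scaling by the reads in peaks and 1.03 against the 1st percentile of density, and that of mdxTLR4-/- to WT was 1.08 and 1.05, on the other side of 1 from the unscaled 0.956. The causes of the other moves were not tested. The counts of changed members are small, so that 1 or 2 genes passing a limit can move them by 1.5 times. Under the alternatives the counts were taken over the members only. Shares over all genes were not computed for them, so they cannot be set beside the genes at large. Among changes under 20 points, that of Adamts13 from WT to mdx turned from 8.56 to -1.86 points with denser peaks, and that of Mmp14 from mdx to mdxTLR4-/- turned from 14.0 to -2.03 with denser peaks and with lists of equal length. No paired analysis was possible because each genotype has 1 list per mark. Leaving out replicates could not be run for the same reason. The H3K27ac peaks near member starts held 5 to 39 reads; how deeply the libraries were sequenced was not analysed here.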
